A study of Drosophila melanogaster with 32 samples.

Results

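The vacuolar proton pump genes of Drosophila carry FlyBase symbols that begin with Vha, and every row of the gene count table with such a symbol was taken, 32 of 17737 genes. The reference annotation names 33 genes in this way, and the C subunit gene Vha44 was not analysed here. The 32 genes were described in whole females before and after the Smurf transition at 3 ages, since the pump is used by several tissues of the fly and some of its subunits have tissue-restricted copies.

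The vacuolar ATPase is a rotary enzyme. Its cytosolic V1 sector hydrolyses ATP, and its membrane sector, Vo, moves protons across the membrane through a ring of proteolipids. It acidifies lysosomes, endosomes and synaptic vesicles, and in the apical membrane of epithelia it exports protons from the cell, in the Malpighian tubule to drive fluid secretion and in the copper cells of the midgut to make the lumen acid.

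All samples came from mated females of the Drs-GFP line, which carries a GFP reporter of the antimicrobial peptide gene Drosomycin, and each sample was a pool of 8 whole flies. Smurfs are flies in which a blue food dye has spread from the gut through the body, and non-Smurfs are flies of the same population that kept the dye in the gut. There were 4 Smurf and 4 non-Smurf samples at 20 days, 6 and 6 at 30 days and 6 and 6 at 40 days. Smurfs were taken within 5 hours of turning blue, within 1 day, or at an unknown time (mixed, M), and the non-Smurfs of a collection were taken with them. The 30-day groups each hold 1 mixed sample labelled 32 days. The libraries had between 12164198 and 22798065 counts, with ranges that overlapped between Smurfs and non-Smurfs. On the first principal component of the 1000 most variable genes, 3 of the 6 Smurf samples of 40 days (1d-p, 5h-c7 and 5h-c8) lay within the range of the non-Smurfs, and no other Smurf sample did. Counts of pump genes called over all ages, at 40 days, between 40 and 20 days in Smurfs and in the change of the Smurf difference with age are given with and without them. So are the main correlations and the list counts between 40 and 20 days in Smurfs. Other fits that include them, among them those by collection time, are given only with them. In whole-body RNA, fewer cells of a type and less RNA per cell cannot be told apart.

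Transcripts were found for 1 main gene per subunit and for few of the copies. Of the 32 genes, 3 were never counted (the a subunit copy Vha100-3 and the c subunit copies Vha16-2 and Vha16-4), and 8, these included, had 3 counts or fewer in every sample. The other 5 of these 8 were Vha16-3, Vha16-5, Vha36-2, Vha14-2 and VhaPPA1-2. A further 3 genes, VhaAC39-2, VhaM9.7-d and Vha68-3, stood above this floor in some samples but reached at most 6, 4 and 8 counts. These 11 genes did not pass the filter on low counts and were not tested, and the other 21 genes were tested in every comparison (9 of V1, 10 of Vo and 2 accessory proteins). Without a test nothing can be said of change in the 11 genes, only that their level was low in all 6 groups.

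Levels between genes were compared as CPM (counts scaled to a common library size) per kilobase of exon, averaged over the 32 samples. The c subunit gene Vha16-1, whose product forms most of the proton-carrying ring, had the highest level at 435 CPM per kb. It was followed by the B subunit gene Vha55 (282 CPM per kb) and the catalytic A subunit gene Vha68-2 (251 CPM per kb). The subunits of the stalks and rotor lay below them, with Vha13 (G subunit) at 226, Vha26 (E) at 177, Vha36-1 (D) at 137 and Vha14-1 (F) at 111 CPM per kb. In the membrane sector, VhaAC39-1 (d) had 145, VhaPPA1-1 (the c″ proteolipid) 126, Vha100-2 (a) 123 and VhaM9.7-b (e) 96.0 CPM per kb. The accessory gene VhaAC45, a homologue of mammalian ATP6AP1, had 143 and VhaSFD, the H subunit, 80.7 CPM per kb. Neighbours in this order lay close together, and the 6 genes from VhaAC39-1 to Vha14-1 lay within 111 to 145 CPM per kb.

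The other copies were lower on the same scale. VhaM9.7-c (e) had 44.4 CPM per kb beside VhaM9.7-b, Vha68-1 had 11.9 CPM per kb beside Vha68-2, and Vha36-3 had 3.998 CPM per kb beside Vha36-1. The a subunit was the family with the most expressed copies. Vha100-1, known for its role in synaptic vesicles of neurons, had 53.6 CPM per kb, Vha100-5 had 18.5 CPM per kb and Vha100-4, known from the acid-secreting copper cells of the midgut, had 3.79 CPM per kb. Vha100-4 and Vha100-2 are neighbours on chromosome arm 3R, 517 bases apart on the same strand, and Vha68-2 and Vha68-3 lie 178 bases apart on 2L. Exons of Vha100-4 overlap those of cona by 47 bases on the other strand, and those of Vha100-5 overlap an antisense RNA by 527 bases, so reads of these stretches are uncertain where the counting did not use the strand.

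**Figure D1:**
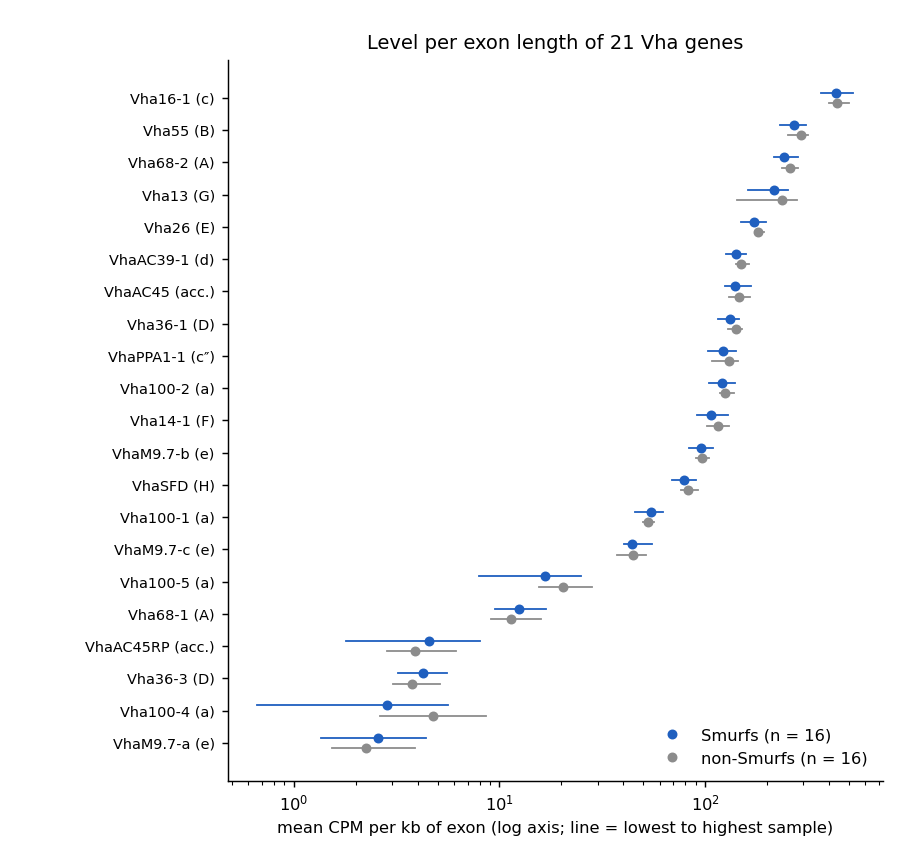
Level of the 21 tested Vha genes in CPM per kb of exon (log axis), as the mean of 16 Smurf samples (blue) and 16 non-Smurf samples (grey), with a line from the lowest to the highest sample and the subunit letter in parentheses. Means run from 432 CPM per kb in Smurfs and 439 CPM per kb in non-Smurfs for Vha16-1 to 2.56 and 2.26 CPM per kb for VhaM9.7-a, and the widest lines are those of low genes such as Vha100-4.

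At 20 days, several pump genes were lower in Smurfs than in non-Smurfs, most by a small amount and 2 a subunit copies by more. Of the 21 genes tested, 7 fell and 1 rose (edgeR's quasi-likelihood test, Benjamini-Hochberg adjusted p under 0.05 over all genes). That is 38.1% of the genes against a background of 19.1% of all 9944 genes tested, and 33.3% called lower against a background of 9.87%. The median log2 fold change (log2FC) of the 21 genes was -0.13, and that of all genes tested was 0.03. The groups did not overlap for 12 of the 21 genes, against 23% of all genes. With the RLE size factors of DESeq2 in place of TMM the split was 10 lower and 0 higher, and the count ranged from 4 to 12 when 1 sample was left out. It was 4 without Smurf M-4 or non-Smurf 1d-a, and 5 without Smurf 1d-d, Smurf 1d-e, non-Smurf 1d-b or non-Smurf M-1. The shares of all genes called in these refits are not given here, so the counts cannot be set against them.

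Vha100-4, the copper-cell a subunit, changed most. Throughout the 20-day comparison the Smurf samples are given in the order 1d-d, 1d-e, 1d-f and M-4, and the non-Smurf samples in the order 1d-a, 1d-b, 1d-c and M-1. Vha100-4 had 3.96, 7.23, 3.32 and 1.81 CPM in Smurfs, against 14.1, 11.9, 12.1 and 23.5 CPM in non-Smurfs. The lowest Smurf and the highest non-Smurf were the mixed samples M-4 and M-1, and the groups did not overlap. Its log2FC was -1.87 (SE 0.39, adjusted p = 0.0114), or 3.65-fold lower in Smurfs, and it passed the threshold whichever of the 8 samples was left out.

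Vha100-5, a further a subunit gene, had 27.5, 38.2, 49.3 and 31.6 CPM in Smurfs, against 62.1, 54.1, 51.9 and 70.1 CPM in non-Smurfs. Every Smurf sample was below every non-Smurf sample, with 1d-f the nearest (log2FC -0.66, SE 0.18, adjusted p = 0.0302). The call held in 2 of the 8 fits that left out 1 sample, those without Smurf 1d-f and without non-Smurf 1d-c, and the adjusted p reached 0.0745 without non-Smurf 1d-a.

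Vha100-1, the neuronal a subunit, was the 1 gene called higher. It had 178, 182, 170 and 194 CPM in Smurfs, against 165, 166, 164 and 166 CPM in non-Smurfs. The non-Smurf values were nearly equal, and all Smurf values lay above them (log2FC 0.17, SE 0.05, adjusted p = 0.0375). The call held in 2 of 8 fits without 1 sample (those without Smurf 1d-d and without Smurf 1d-f), and it was lost with RLE size factors (log2FC 0.15, adjusted p = 0.0556). Of all 14 alternative fits, these included, it held in 5. Vha100-2, the most abundant a subunit gene, had 375, 362, 403 and 355 CPM in Smurfs, against 409, 391, 403 and 408 CPM in non-Smurfs, and was not called (log2FC -0.07, SE 0.04, adjusted p = 0.292).

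The makeup of the a subunit pool differed accordingly, on the scale of CPM per kb. Vha100-4 was 0.809% ± 0.458 of the summed level of the a subunit genes in Smurfs and 2.78% ± 0.892 in non-Smurfs (SD, n = 4 each). Vha100-5 was 6.75% ± 1.51 of it in Smurfs and 10.1% ± 1.07 in non-Smurfs. Vha100-1 made up 29.8% ± 2.51 in Smurfs and 24.97% ± 0.755 in non-Smurfs, and Vha100-2 62.6% ± 1.77 in Smurfs and 62.1% ± 1.32 in non-Smurfs. The shares were not tested.

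**Figure D2:**
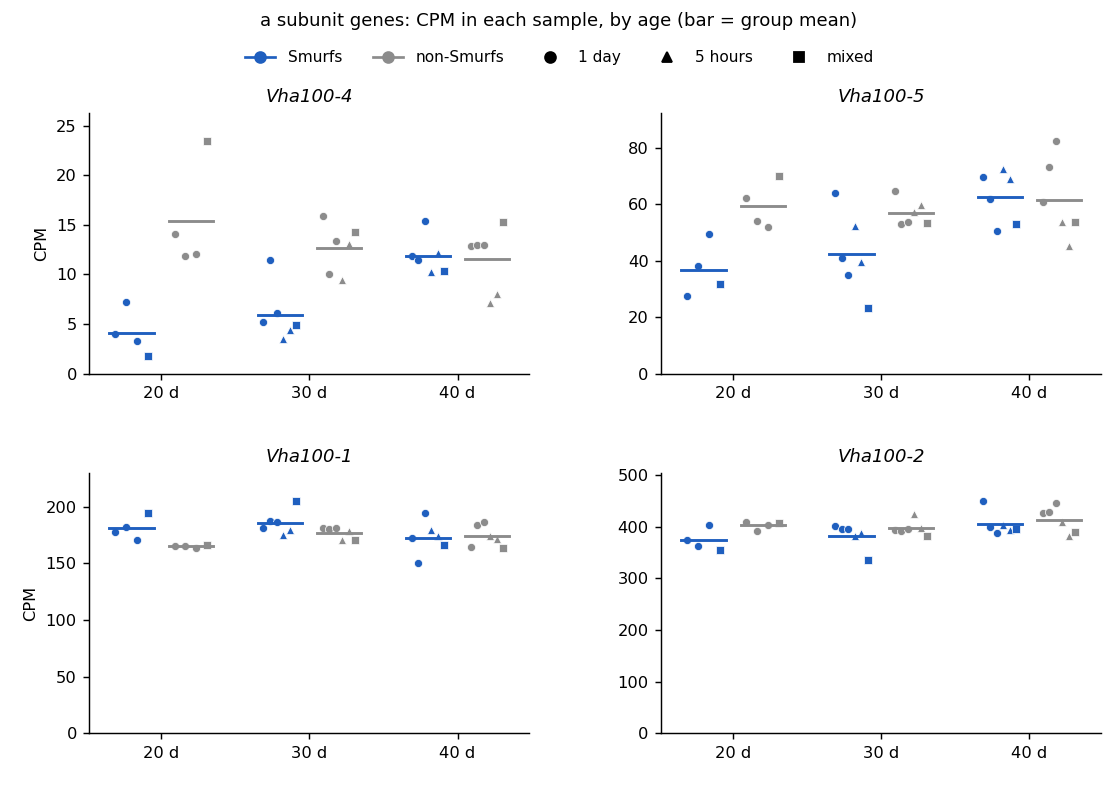
CPM of the 4 expressed a subunit genes in each sample, by age, with Smurfs (blue) left of non-Smurfs (grey), a bar at the group mean and the marker shape for the time of collection. Vha100-4 averages 4.08 CPM in the 20-day Smurfs and 15.4 CPM in the 20-day non-Smurfs, and the 2 states overlap at 40 days.

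The V1 sector held 5 of the 7 genes called lower at 20 days, all with log2FC between -0.29 and -0.17. Vha14-1, the F subunit of the central rotor, had 62.8, 60.3, 69.0 and 59.9 CPM in Smurfs, against 73.3, 75.5, 80.8 and 86.3 CPM in non-Smurfs (log2FC -0.29, SE 0.07, adjusted p = 0.0158). Vha36-1, the D subunit of the same rotor, had 137, 129, 137 and 131 CPM in Smurfs, against 154, 156, 150 and 157 CPM in non-Smurfs (log2FC -0.17, SE 0.03, adjusted p = 0.0104). Both rotor genes were separated by state in all 8 samples and were called whichever sample was left out.

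The peripheral stalks hold the catalytic head in place while the rotor turns. Vha13, their G subunit, had 218, 202, 219 and 211 CPM in Smurfs, against 242, 254, 241 and 264 CPM in non-Smurfs (log2FC -0.20, SE 0.04, adjusted p = 0.0144). Vha26, the E subunit, had 456, 462, 493 and 444 CPM in Smurfs, against 535, 525, 514 and 561 CPM in non-Smurfs (log2FC -0.17, SE 0.05, adjusted p = 0.0325). VhaSFD, the H subunit, which regulates the coupling of both sectors, had 197, 204, 204 and 194 CPM in Smurfs, against 234, 223, 224 and 246 CPM in non-Smurfs (log2FC -0.18, SE 0.04, adjusted p = 0.0227). None of the 3 genes overlapped between the states. Vha13 was called in all 8 fits that left out a sample but not in the model of 6 groups (log2FC -0.22, adjusted p = 0.331). VhaSFD was called in 5 (not without Smurf 1d-d, Smurf M-4 or non-Smurf 1d-a, with adjusted p up to 0.0594) and Vha26 in 2 (without Smurf 1d-f and without non-Smurf 1d-c, otherwise up to 0.0931).

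The catalytic head genes were lower in every Smurf sample but did not pass the threshold. Vha68-2 had 622, 633, 685 and 636 CPM in Smurfs, against 737, 716, 704 and 777 CPM in non-Smurfs (log2FC -0.15, SE 0.05, adjusted p = 0.0552). Vha55 had 746, 759, 800 and 714 CPM in Smurfs, against 842, 836, 828 and 879 CPM in non-Smurfs (log2FC -0.13, SE 0.04, adjusted p = 0.0712). The low copies of V1 had values on the other side of 0, with log2FC 0.18 (SE 0.10) for Vha68-1 and 0.07 (SE 0.13) for Vha36-3, and neither was called.

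In the rest of the membrane sector the differences were small and were not called. Vha16-1 had 1127, 1201, 1273 and 1146 CPM in Smurfs, against 1306, 1331, 1232 and 1492 CPM in non-Smurfs, and these overlapped. VhaPPA1-1 had 157, 163, 174 and 170 CPM in Smurfs, against 191, 184, 172 and 196 CPM in non-Smurfs, which overlapped at 1 sample of each state. VhaAC39-1, the d subunit, which links the ring to the rotor, had 226, 231, 250 and 239 CPM in Smurfs, against 258, 268, 265 and 278 CPM in non-Smurfs. VhaAC39-1 came closest to the threshold of these genes (log2FC -0.14, SE 0.05, adjusted p = 0.0595). The e subunit gene VhaM9.7-b had 101, 105, 109 and 102 CPM in Smurfs, against 111, 110, 114 and 126 CPM in non-Smurfs (log2FC -0.11, SE 0.05, adjusted p = 0.181). The other tested genes were VhaM9.7-c, VhaM9.7-a, VhaAC45 and VhaAC45RP, with log2FC between -0.13 and 0.24 and no call.

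Some cell type markers were called at 20 days too, in either direction. Of the 8 midgut markers, all of them detected, 5 fell at 20 days and 0 rose. Their summed level was 1005 to 1619 CPM in Smurfs and 2104 to 2881 CPM in non-Smurfs. The copper cell regulator lab had a low level, with a mean of 0.554 CPM in Smurfs and 1.70 CPM in non-Smurfs (log2FC -1.52, SE 0.35, adjusted p = 0.0174). It was not called at 30 days (log2FC -0.44, SE 0.29, adjusted p = 0.365) or over all ages (log2FC -0.49, SE 0.19, adjusted p = 0.0649). Of the 8 Malpighian tubule markers 2 fell, with summed levels of 219 to 295 CPM in Smurfs and 236 to 358 CPM in non-Smurfs, and of the 9 neuron markers 0 were called, at 319 to 467 CPM in Smurfs and 311 to 442 CPM in non-Smurfs. Follicle cell markers (6 of 8 fell, 4.1 to 634 CPM in Smurfs and 1049 to 3138 CPM in non-Smurfs) and fat body markers (1 of 2 tested fell, 572 to 997 CPM in Smurfs and 2471 to 3895 CPM in non-Smurfs) differed too. The fat body sums cover 4 genes, of which 2 were tested. Of 7 muscle markers 2 rose (1513 to 1945 CPM in Smurfs and 1392 to 1614 CPM in non-Smurfs), and of 9 germline markers 1 fell (2786 to 2992 CPM in Smurfs and 2959 to 3154 CPM in non-Smurfs). Of all 9944 genes tested at this age, 9.87% were called lower and 9.22% higher. No marker gene was at 0 in every sample. The part of these cells in the pump results was not tested.

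**Figure D3:**
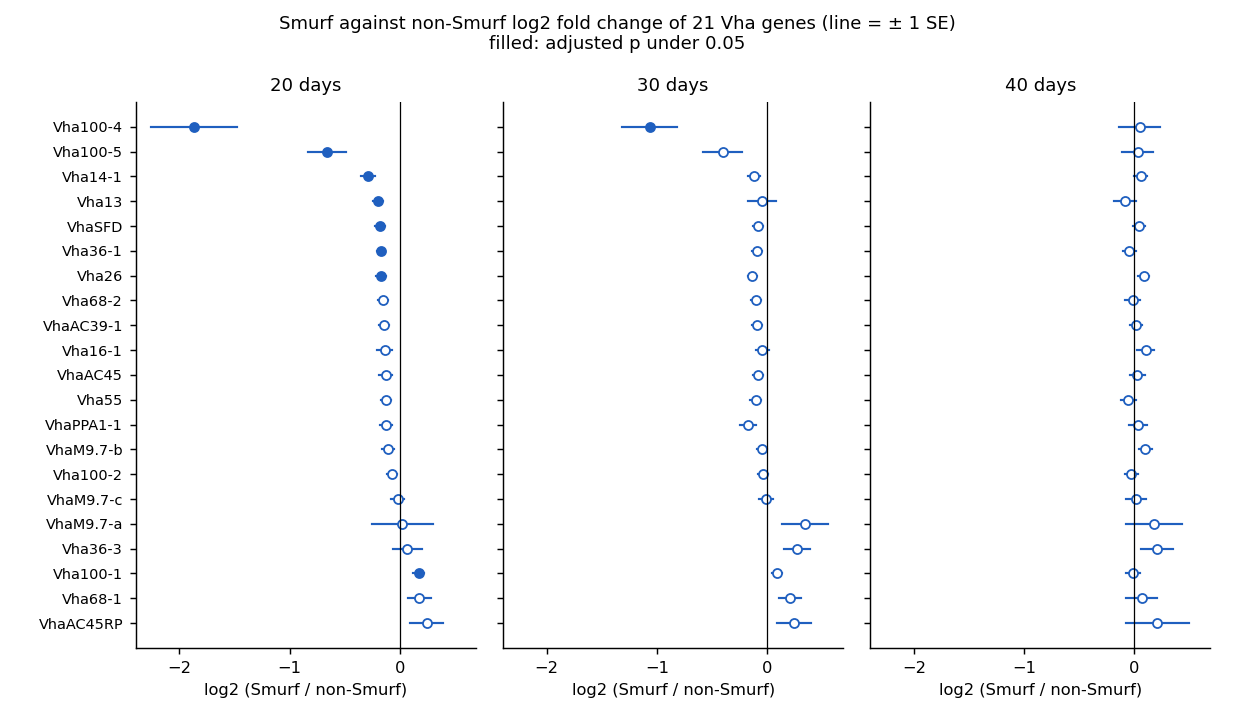
Smurf against non-Smurf log2FC of the 21 tested Vha genes at 20, 30 and 40 days (points, with a line of 1 SE to each side, filled where the adjusted p was under 0.05). At 20 days 8 points are filled, at 30 days only Vha100-4 (log2FC -1.07), and at 40 days none.

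At 30 days, Vha100-4 was the 1 pump gene called, 1 of 21 or 4.76% against a background of 14.4% of all genes. It had 3.46 CPM in the lowest, 5.08 CPM in the median and 11.5 CPM in the highest of 6 Smurf samples, against 9.43, 13.2 and 15.9 CPM in the 6 non-Smurf samples. The groups overlapped through Smurf 1d-k, yet all 6 Smurf samples were below the non-Smurf mean (log2FC -1.07, SE 0.25, adjusted p = 0.0159, 2.10-fold lower). The call held without each sample in turn, and leaving out Smurf 1d-j, Smurf 5h-c3 or non-Smurf 5h-c1 gave 2, 2 and 3 pump genes called. It did not hold without the 2 mixed samples labelled 32 days (log2FC -0.99, adjusted p = 0.0822), where 5.10% of all genes were called, or in the 1-day samples alone, a setting chosen after seeing the data (log2FC -0.76, adjusted p = 0.259), where 0.166% of all genes were called. Of the midgut markers 4 of 8 fell at this age, with summed levels of 1543 to 2170 CPM in Smurfs and 1568 to 3356 CPM in non-Smurfs. Of the follicle cell markers 5 of 8 fell (2.22 to 1071 CPM in Smurfs and 564 to 3767 CPM in non-Smurfs). Of the fat body markers 2 of 2 tested fell (270 to 1741 CPM in Smurfs and 1845 to 3860 CPM in non-Smurfs, summed over 4 genes). Of the neuron markers 4 of 9 rose (348 to 469 CPM in Smurfs and 310 to 390 CPM in non-Smurfs). Of all 10090 genes tested at this age, 5.94% were called lower and 851 genes were called higher. The part of these cell types in the result was not tested.

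Other pump genes at 30 days had the sign of the 20-day comparison without passing the threshold. Of the 21 genes 16 had a log2FC below 0, with a median of -0.08 against 0.00 for all genes. Vha26 was the closest, at 437, 486 and 512 CPM (lowest, median and highest) in Smurfs, against 522, 528 and 563 CPM in non-Smurfs. The groups of Vha26 did not overlap (log2FC -0.13, SE 0.04, adjusted p = 0.054). Vha100-5 had 23.3, 40.3 and 64.0 CPM in Smurfs, against 52.9, 55.6 and 64.6 CPM in non-Smurfs, a wider spread in Smurfs (log2FC -0.40, SE 0.18, adjusted p = 0.149).

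At 40 days no pump gene and no other gene passed the threshold in this comparison. The test called 0 of 21 pump genes, against a background of 0% of 10081 genes. At an unadjusted p under 0.05 there were 0 of the 21 pump genes and 650 of all genes, and DESeq2 called 0 of 21 and 22 of all genes. Vha100-4 had 10.3, 11.6 and 15.4 CPM in Smurfs (lowest, median and highest), against 7.15, 12.9 and 15.3 CPM in non-Smurfs. Vha100-5 had 50.5, 65.5 and 72.4 CPM in Smurfs, against 45.4, 57.3 and 82.5 CPM in non-Smurfs. Both genes overlapped over most of their range. The log2FC of the 21 genes lay between -0.09 and 0.21, with a median of 0.03. Without Smurf 1d-p, 5h-c7 and 5h-c8, left out after seeing the data, the count was also 0, with 2 of all genes called.

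With all ages together the share of pump genes called was close to that of all genes. Of 21 genes 5 fell and 0 rose, or 23.8% against a background of 22.7% of all 10052 genes in either direction and 11.3% called lower. The log2FC was below 0 for 16 of the 21 genes (76.2%, against 53.1% of all genes), with a median of -0.07 against -0.01. Vha100-4 had 1.81, 6.69 and 15.4 CPM (lowest, median and highest) in 16 Smurf samples, against 7.15, 12.97 and 23.5 CPM in 16 non-Smurf samples. It was below the non-Smurf mean in 15 of the 16 Smurf samples (log2FC -0.74, SE 0.22, adjusted p = 0.0144). Of the markers, 6 of 8 midgut, 6 of 8 follicle cell, 2 of 2 fat body, 1 of 8 tubule and 1 of 9 germline genes fell in the same comparison. Among the rest, 3 of 9 neuron and 1 of 7 muscle genes rose, where 1148 of all 10052 genes rose. The part of these cell types was not tested.

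The other 4 genes called over all ages fell by 0.08 to 0.11 on the log2 scale. Vha36-1 had 123, 139.5 and 155 CPM in Smurfs, against 138, 151 and 160 CPM in non-Smurfs (log2FC -0.11, adjusted p = 0.00721). Vha55 had 647, 754 and 863 CPM in Smurfs, against 705, 825 and 879 CPM in non-Smurfs (log2FC -0.11, adjusted p = 0.0187). Vha68-2 had 594, 667 and 781 CPM in Smurfs, against 655, 714 and 777 CPM in non-Smurfs (log2FC -0.10, adjusted p = 0.0323). All of these overlapped widely. VhaAC39-1 had 226, 252 and 283 CPM in Smurfs, against 253, 265 and 292 CPM in non-Smurfs (log2FC -0.08, adjusted p = 0.0393). Its call held in 22 of 42 alternative fits, against 32 for Vha68-2, 37 for Vha55 and 41 for Vha36-1. Leaving out 1 sample gave 2 to 6 calls, with the fewest without non-Smurf 1d-g of 30 days, where Vha55 (adjusted p = 0.0655), Vha68-2 (0.0873) and VhaAC39-1 (0.0799) were lost. There were 3 calls without Smurf 1d-e, Smurf M-4 or non-Smurf M-1 of 20 days, or Smurf M-10 of 30 days. Without Smurf 1d-p, 5h-c7 and 5h-c8 of 40 days there were 11 calls, all lower, or 52.4% of 21 genes against 29.05% of all genes in that fit.

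Fewer genes of any kind were called within 1 collection time. The 1-day samples alone gave 1 pump gene called, where 10.9% of all genes were called, and the 5-hour samples alone gave 0, where 0% of all genes were called. In the 5-hour samples, 4 a state, Vha55, Vha36-1 and Vha68-2 had a log2FC of 0.03, 0.03 and 0.02, above 0. The Smurf samples there include 5h-c7 and 5h-c8 of 40 days, which lay within the non-Smurf range of the first principal component. Within 30- and 40-day Smurfs, the 5-hour against 1-day comparison called 0 of 21 pump genes against a background of 0% of 10541 genes. This comparison includes Smurf 1d-p, 5h-c7 and 5h-c8, and it was not repeated with those left out together. At an unadjusted p under 0.05 there were 0 pump genes and 713 of all genes, and DESeq2 called 0 pump genes and 69 of all genes. Vha100-4 had the lowest value, with a log2FC of -0.53 (SE 0.26, adjusted p = 0.751).

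Among Smurfs, pump genes were higher at 40 than at 20 days. Of 21 genes 8 rose and 0 fell, or 38.1% against a background of 17.6% of all 10353 genes in either direction and 10.5% called higher. The median log2FC was 0.15, against 0.01 for all genes. The groups did not overlap for 6 of 21 genes, against 13.7% of all genes. This comparison uses the same 4 Smurf samples as the 20-day comparison.

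Vha100-4 again had the highest log2FC. It had 10.3, 11.6 and 15.4 CPM (lowest, median and highest) in 40-day Smurfs, against 1.81, 3.64 and 7.23 CPM in 20-day Smurfs, and the groups did not overlap (log2FC 1.53, SE 0.35, adjusted p = 0.0121, 2.88-fold higher). Without the 3 Smurf samples 1d-p, 5h-c7 and 5h-c8 its log2FC was 1.58 (adjusted p = 0.0574). Vha100-5 had 50.5, 65.5 and 72.4 CPM in 40-day Smurfs, against 27.5, 34.9 and 49.3 CPM in 20-day Smurfs (log2FC 0.76, SE 0.23, adjusted p = 0.033). Its groups did not overlap, and it was called in 10 of 16 fits that left out a sample (adjusted p up to 0.116, without Smurf 1d-d of 20 days).

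The main c subunit gene of the ring and the main e subunit gene were higher at 40 than at 20 days in Smurfs. Vha16-1 had 1283, 1482 and 1609 CPM in 40-day Smurfs, against 1127, 1173 and 1273 CPM in 20-day Smurfs (log2FC 0.30, SE 0.08, adjusted p = 0.0187). VhaM9.7-b had 111, 130 and 133 CPM in 40-day Smurfs, against 101, 104 and 109 CPM in 20-day Smurfs (log2FC 0.26, SE 0.06, adjusted p = 0.016). Neither overlapped between the ages. The other ring gene VhaPPA1-1 (log2FC 0.03, SE 0.07) and the e subunit genes VhaM9.7-c (0.05, SE 0.07) and VhaM9.7-a (0.52, SE 0.30) were not called. VhaAC39-1, the d subunit, had 244, 267 and 283 CPM in 40-day Smurfs, against 226, 235 and 250 CPM in 20-day Smurfs, which overlapped (log2FC 0.15, SE 0.05, adjusted p = 0.0415). It was called in 7 of 16 fits that left out a sample (adjusted p up to 0.141, without Smurf 1d-d of 20 days).

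In V1, the genes called with age in Smurfs were 3 of those called at 20 days. VhaSFD had 228, 245 and 255 CPM in 40-day Smurfs, against 194, 200 and 204 CPM in 20-day Smurfs (log2FC 0.27, SE 0.05, adjusted p = 0.00678). Vha26 had 515, 569 and 576 CPM in 40-day Smurfs, against 444, 459 and 493 CPM in 20-day Smurfs (log2FC 0.25, SE 0.05, adjusted p = 0.0101). Neither gene overlapped between the ages. Vha14-1 had 68.1, 76.7 and 85.0 CPM in 40-day Smurfs, against 59.9, 61.5 and 69.0 CPM in 20-day Smurfs, with 1 overlap (log2FC 0.27, SE 0.07, adjusted p = 0.0168). Vha13 and Vha36-1 were not called, with log2FC -0.06 (SE 0.10) and 0.10 (SE 0.06).

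The age difference in Smurfs rested on the samples used. Without Smurf 1d-d of 20 days 3 genes were called, without M-4 of 20 days 4, and in the other fits 6 to 9. Without 1d-p, 5h-c7 and 5h-c8, or with the 1-day samples only, both settings chosen after seeing the data, 0 of 21 genes were called, where 3.61% and 0.359% of all genes were called, while the log2FC of the 8 genes stayed above 0, between 0.08 and 1.58 without those 3 samples. Tissue markers moved as well, with 3 of 8 midgut markers (2125 to 3074 CPM in 40-day Smurfs and 1005 to 1619 CPM in 20-day Smurfs), 3 of 8 tubule markers (266 to 489 CPM in 40-day Smurfs and 219 to 295 CPM in 20-day Smurfs) and 3 of 7 muscle markers (1794 to 2510 CPM in 40-day Smurfs and 1513 to 1945 CPM in 20-day Smurfs) called higher. With all Smurf samples, 10.5% of all genes were called higher. Without 1d-p, 5h-c7 and 5h-c8, 1 gene of each of these 3 marker lists was called higher, where 279 of all 10375 genes were. The part of these cell types in the result was not tested either.

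**Figure D4:**
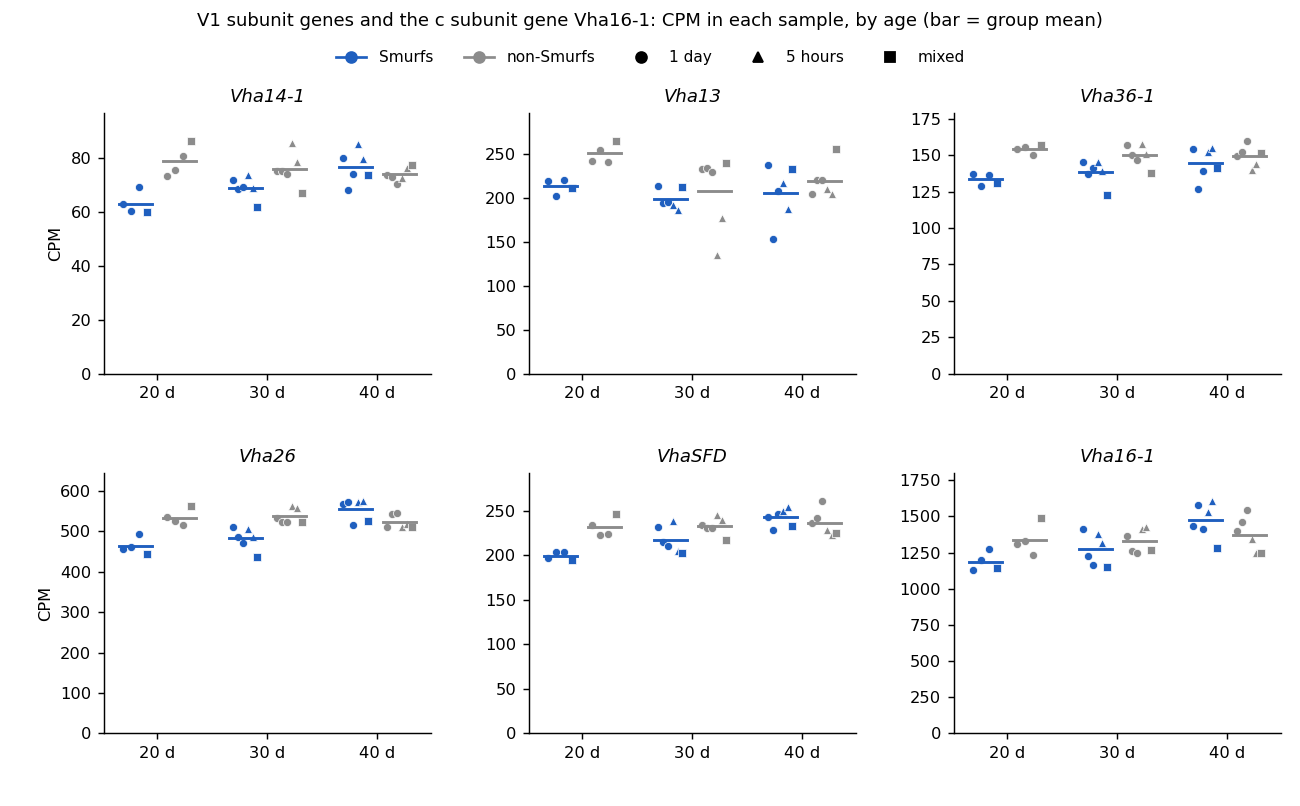
CPM of 5 V1 subunit genes and of Vha16-1 in each sample, by age, with Smurfs (blue) left of non-Smurfs (grey), a bar at the group mean and the marker shape for the time of collection. At 20 days the Smurf values of the 5 V1 genes lie below the non-Smurf values, and at 40 days the states overlap for all 6 genes.

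In non-Smurfs no pump gene was called between 40 and 20 days, 0 of 21 against a background of 1.89% of 10260 genes. At an unadjusted p under 0.05 there were 0 pump genes as well, and DESeq2 called 0. The median log2FC was 0.00, with a range of -0.43 (Vha100-4, SE 0.24) to 0.32 (VhaM9.7-a, SE 0.23). Vha100-4 had 7.15, 12.9 and 15.3 CPM in 40-day non-Smurfs, against 11.9, 13.1 and 23.5 CPM in 20-day non-Smurfs. All 6 samples of 40 days were below the mean of 20 days, which M-1 raised, and the groups overlapped.

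Whether the Smurf difference itself changed with age was tested as an interaction in 1 model of 6 groups. It was called for 2 of 21 pump genes, 9.52% against a background of 0.256% of 10529 genes (27 genes). For Vha100-4 the log2FC at 40 days was above that at 20 days by 1.94 (SE 0.43, adjusted p = 0.049), and for Vha26 by 0.27 (SE 0.06, adjusted p = 0.049). Both lay just inside the threshold. They were called in 6 and 7 of the 32 fits that left out a sample, with adjusted p up to 0.155 and 0.197, both without non-Smurf M-1 of 20 days, and in neither case without Smurf 1d-p, 5h-c7 and 5h-c8 (1.98, adjusted p = 0.35, and 0.21, adjusted p = 0.602), where 0 of all genes were called. Vha14-1 was just outside it at 0.37 (SE 0.08, adjusted p = 0.054).

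The pump genes varied together to different degrees. Correlations were taken over the 32 samples of log2 CPM after the mean of its group was removed, so that they describe replicates, and they share library depth and normalization. Vha26, Vha16-1, VhaM9.7-b and Vha100-5 formed a tight block, with r = 0.86 for Vha26 with VhaM9.7-b, 0.85 for Vha26 with Vha100-5 and 0.84 for Vha26 with Vha16-1. Vha55, Vha68-2 and VhaAC45 formed another, with r between 0.84 and 0.87. Without Smurf 1d-p, 5h-c7 and 5h-c8 (29 samples) these 3 values of Vha26 were 0.84, 0.84 and 0.85, and those of the other block 0.81 to 0.84. The highest r was 0.90, between Vha13 and VhaPPA1-1 (0.91 without those 3 samples). Both genes were lowest or next to lowest in non-Smurf 5h-c1 of 30 days (135 and 146 CPM) and Smurf 1d-q of 40 days (153 and 139 CPM).

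Other members stood apart from these blocks. VhaM9.7-c ran against many genes, with r = -0.80 with VhaAC45 and -0.77 with VhaPPA1-1 (-0.82 and -0.77 without those 3 samples). Vha100-4 had a median r of 0.53 with its 13 partners among genes above 100 CPM over all samples, and 0.13 once the group means were removed (0.52 and 0.15 without those 3 samples). The median spread of replicates (SD as a percentage of the mean, 17 pump genes above 20 CPM) was 4.52% in 20-day Smurfs, 5.79% in 30-day Smurfs and 8.24% in 40-day Smurfs, or 9.18% in the 3 samples of 40 days other than 1d-p, 5h-c7 and 5h-c8. In non-Smurfs it was 4.77%, 5.79% and 5.96%. The median over 6512 genes above the same level was 5.31%, 6.86% and 10.3% in Smurfs and 6.34%, 8.81% and 10.1% in non-Smurfs.

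**Figure D5:**
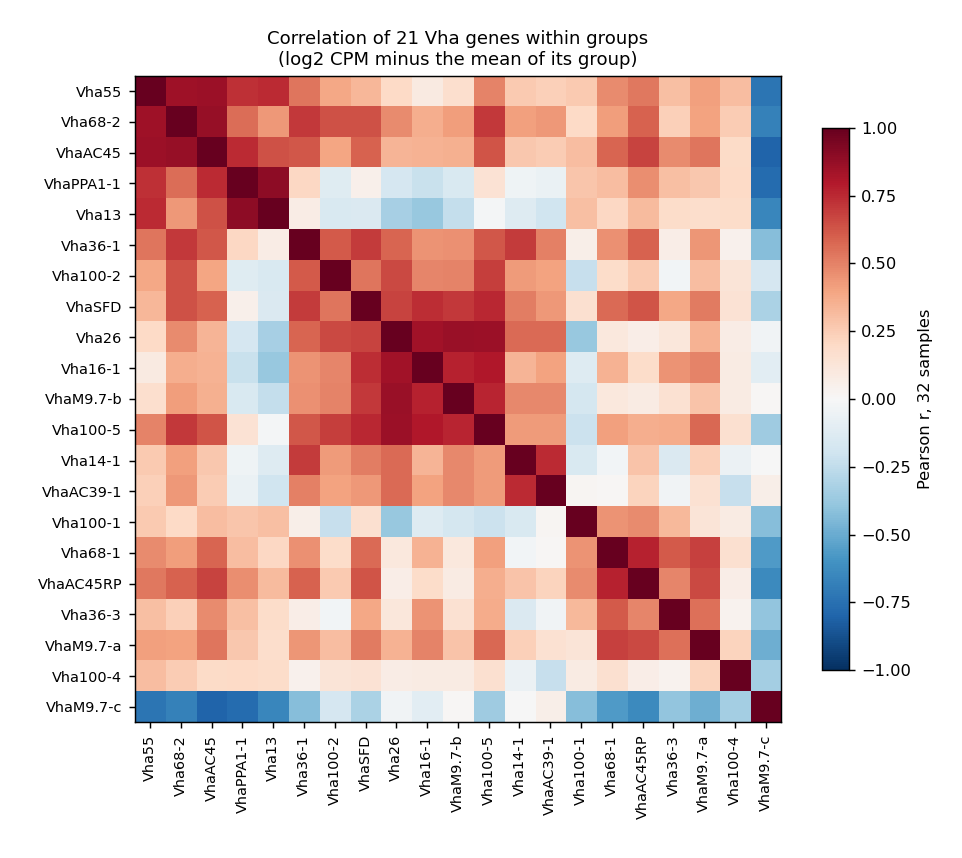
Pearson r between the 21 tested Vha genes over 32 samples, from log2 CPM minus the mean of its group (colour scale from -1 to 1). Vha26, Vha16-1, VhaM9.7-b and Vha100-5 share r of 0.76 and above, and VhaM9.7-c has r of -0.80 with VhaAC45.

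Genes that assemble or regulate the pump under other names were examined as a list of 5. Of these, 0 were called over all ages and at 20 days, where ATP6AP2, the accessory membrane protein once named the prorenin receptor in mammals, had a log2FC of -0.18 (SE 0.06, adjusted p = 0.0619). Rbcn-3A and Rbcn-3B, whose products help the sectors assemble, had 0.03 (SE 0.06) and 0.03 (SE 0.05), and Mitf, a transcription factor of pump and lysosome genes in the fly, had 0.00 (SE 0.04). The TLDc domain gene mtd had -0.06 (SE 0.04) at 20 days and was called at 30 days (log2FC -0.19, SE 0.05, adjusted p = 0.0348). None of the 5 was called between 40 and 20 days in Smurfs, with log2FC between 0.00 and 0.08.

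Lysosomal genes did not move in 1 direction at 20 days. Of 20 genes tested 1 rose and 2 fell (5% and 10%), against 9.22% called higher and 9.87% called lower of all genes, with a median log2FC of -0.01 against 0.03 for all genes. Cln3, a lysosomal membrane protein, had a log2FC of -0.80 (SE 0.19, adjusted p = 0.0194) and the glucocerebrosidase Gba1b -0.68 (SE 0.17, adjusted p = 0.0245), while the lysosomal transporter spin had 0.23 (SE 0.04, adjusted p = 0.00677). Between 40 and 20 days in Smurfs 7 rose (35%, against 10.5% of all genes) and 1 fell, with a median of 0.24 against 0.01. Gba1b had 1.33 (SE 0.32, adjusted p = 0.0146), Cln3 0.87 (SE 0.20, adjusted p = 0.0116) and the saposin gene Sap-r 0.39 (SE 0.08, adjusted p = 0.00791). Without 1d-p, 5h-c7 and 5h-c8, 3 of the list rose and 0 fell, where 279 of all 10375 genes rose and 96 fell.

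TORC1, the growth kinase complex that senses amino acids at the lysosome through the pump, was followed by 19 tested genes of 21 listed. The kinase gene Tor itself was not matched and was not analysed here. At 20 days 4 rose (21.1%, against 9.22% of all genes) and 0 fell, with a median of 0.02 against 0.03 for all genes. Thor, the translation repressor 4E-BP, had a log2FC of 0.84 (SE 0.10, adjusted p = 0.00134), REPTOR, a transcription factor held back by TORC1, 0.28 (SE 0.04, adjusted p = 0.00306), and mio 0.20 (SE 0.06, adjusted p = 0.0408). Thor and REPTOR were called at 30 days too, with 1.02 and 0.30. Between 40 and 20 days in Smurfs 4 rose (21.1%, against 10.5% of all genes) and 2 fell. Without 1d-p, 5h-c7 and 5h-c8, 1 rose and 1 fell, where 279 of all 10375 genes rose and 96 fell.

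A list of 15 tested genes covered transporters and other proteins, such as the receptor CapaR, that work beside the pump in secretory epithelia. Of these, 3 fell (20%, against 9.87% of all genes) and 0 rose at 20 days, with a median of -0.21 against 0.03 for all genes. The sodium/proton exchanger Nha1 had a log2FC of -0.82 (SE 0.14, adjusted p = 0.00500), the cation-chloride cotransporter Ncc69 -0.29 (SE 0.08, adjusted p = 0.0334) and the aquaporin Prip -0.14 (SE 0.04, adjusted p = 0.0431). At 30 days 3 fell as well (against 5.94% of all genes called lower), and at 40 days 0 were called in either direction. Between 40 and 20 days in Smurfs 5 rose (33.3%, against 10.5% of all genes) and 0 fell, with a median of 0.35 against 0.01. For example, the capa peptide receptor CapaR had 0.85 (SE 0.18, adjusted p = 0.00938), the aquaporin Drip 0.81 (SE 0.20, adjusted p = 0.0169) and the chloride channel SecCl 0.71 (SE 0.18, adjusted p = 0.0182). Without 1d-p, 5h-c7 and 5h-c8, 1 of the list rose and 0 fell, where 279 of all 10375 genes rose and 96 fell. CapaR and SecCl are also in the tubule marker list.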

How the data were processed

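RNA-Seq was analysed for 32 samples. Per the labels and the study's methods, the authors aligned paired-end reads with HISAT2 to BDGP6 and assigned them to genes with featureCounts. Each deposited value is a whole-number count for 1 gene in 1 sample without normalization, and the strand and multi-mapping settings of the counting are not given in the sources used here. Symbols and exon lengths came from BDGP6.54 (release 115), where 17599 of 17737 identifiers matched. The members, gene lists and tests were chosen with earlier results of these data known.

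Differential expression was tested in R 4.3.3 with edgeR 4.0.16 (TMM, filterByExpr by the groups compared, glmQLFit and glmQLFTest), with Benjamini-Hochberg adjustment over all genes tested and a threshold of 0.05. Each SE is the absolute log2FC over the square root of its F. Age was a factor within a state, and the 5-hour comparison had age as covariate. CPM used TMM library sizes. The procedure was tested on simulated data with 200 changed genes, where 92% of changes of log2FC 1 and 59% of changes of 0.5 were recovered at 20 days (9868 genes), and 80% and 46% in the interaction (10462 genes).

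Values were given for members called in a comparison (at most 10) and for the most abundant gene of each subunit, and for list genes for at most the 3 called with the largest absolute log2FC. Alternatives were RLE size factors, DESeq2 1.42.0, other count filters, other models, subsets by collection time and leaving out each sample (138 fits). Each sample was a pool of flies, and since the labels do not say that samples came from separate cultures, p-values measure the spread between these samples. No sample was left out of the main tests, and sequences were not used.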

Additional observations from a re-analysis of the deposited data

Results flagged for a closer look

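Within the 6 groups, 4 values lay far from the rest of their group among 78 groups of values examined over 13 genes, and chance alone flags about 1 in 20 groups. Vha100-4 had 11.5 CPM in Smurf 1d-k of 30 days, where the other 5 Smurf samples had 3.46 to 6.16 CPM, and 15.4 CPM in Smurf 1d-r of 40 days, where the others had 10.3 to 12.1 CPM. Vha36-1 had 123 CPM in Smurf M-10 of 30 days, against 138 to 146 CPM in the others of its group. Vha13 had 255 CPM in non-Smurf M-13 of 40 days, where the others had 203 to 220 CPM.

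The signed Smurf against non-Smurf log2FC was higher at 40 than at 20 days by 1.94 for Vha100-4 and by 0.27 for Vha26. Both come from the test of the difference itself (edgeR, adjusted p = 0.049 each). Vha100-4 averaged 4.08 CPM in Smurfs and 15.4 CPM in non-Smurfs at 20 days, and 11.9 and 11.6 CPM at 40 days. Vha26 averaged 464 and 534 CPM at 20 days, and 554 and 524 CPM at 40 days. The calls held in 8 and 9 of 37 alternative fits.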

How the results depend on the processing

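Counts of pump genes called are given against the main count. Over all ages (5), requiring at least 10 counts in every sample gave 2, the 1-day samples only 1 (10.9% of all genes called), the 5-hour samples only 0 (0%), and leaving out the mixed samples 1 (11.1%). Leaving out Smurf 1d-p, 5h-c7 and 5h-c8 of 40 days, chosen after seeing the data, gave 11. In the 5-hour samples, where the Smurfs include 5h-c7 and 5h-c8 of 40 days, Vha55, Vha36-1 and Vha68-2 turned to log2FC 0.0323, 0.0282 and 0.0222. At 30 days (1), RLE size factors, DESeq2 and the model of 6 groups gave 2 each, and leaving out the samples labelled 32 days, or the 1-day samples only (chosen after seeing the data), 0, while collection time as a block, also added after seeing the data, gave 3 (17.6% of all genes called). Between 40 and 20 days in Smurfs (8), leaving out those 3 Smurf samples, or the 1-day samples only, gave 0. For the interaction (2), DESeq2 gave 4 (1.27% of all genes called), and no filter, at least 10 counts and leaving out those 3 samples gave 0. Leaving out each sample gave 2 to 6 calls over all ages, 4 to 12 at 20 days, 1 to 3 at 30 days, 0 at 40 days, 3 to 9 between 40 and 20 days in Smurfs, 0 in non-Smurfs, 0 to 3 for the interaction and 0 for the collection times. The causes were not tested, and the shares of all genes called in the fits that left out 1 sample are not given here. At 20 days, 40 days, in non-Smurfs and for the collection times, the counts under the other alternatives stayed within 1.5 times the main count. Single samples could not be paired because no replicate number is shared between the groups compared. The states were collected together at each age and collection time, and the main tests did not model this match. With the collection event (age and collection time) as a block there were 7 calls over all ages (30.2% of all genes called), and with the collection time as a block 8 at 20 days and 0 at 40 days. The 11 untested genes had too few counts to pass the filter, and the 20-day groups hold 4 samples each.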
